A study of Homo sapiens with 20 samples.

Results

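COX2 and COX3 are mitochondrial genes that encode core subunits of cytochrome c oxidase, and their mRNAs were followed here base by base in a chemical map of pseudouridine. The members were chosen by position: 684 positions of COX2 (gene 4513, chromosome MT, 7586 to 8269) and 784 positions of COX3 (gene 4514, chromosome MT, 9207 to 9990). Together they are 1468 of the 16570 mitochondrial positions listed, and 2 of 37 mitochondrial genes. The positions were read as mitochondrial coordinates of GRCh38, and below each is also given as a base counted from 1 at the first base of its gene. The list runs to position 16571, past the last base of that reference, so the numbering is an assumption. Under it the highest position of the 16S rRNA gene RNR2 was 3067, base 1397, the base given in the literature as the RPUSD4 site. Whether numbers are shifted within COX2 or COX3 was not tested, and every base and codon number below depends on it. Every named position lies inside the gene interval of an mRNA. No base letter was available for these positions, so a position need not be a uridine.

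RNA came from mitochondria of K562, an established human leukaemia line, and was exposed to CMC (0.5 M in the labels), a carbodiimide that stays attached to pseudouridine and disturbs reverse transcription there. The 14 libraries with a profile comprise 4 of cells with a non-targeting sgRNA (control), 4 with NME6 knocked out, 3 with RPUSD4 knocked down and 3 with NME6 knocked out and wild-type NME6 added back as cDNA (rescue). RPUSD4 is a mitochondrial pseudouridine synthase and NME6 a mitochondrial protein of the nucleoside diphosphate kinase family. The labels say neither whether a line was 1 clone nor how the cDNA was driven, and nothing in them makes the replicates separate cultures. The p-values therefore speak of the scatter among these libraries, which may be technical. The labels give no batch, so a batch of the rescue libraries cannot be told apart from the rescue.

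Cytochrome c oxidase is the last complex of the respiratory chain and passes electrons to oxygen. Its catalytic core is formed by the products of COX1, COX2 and COX3. The COX2 protein receives electrons from cytochrome c at its copper centre, and the COX3 protein sits beside the catalytic subunit and stabilises it. Mitochondrial mRNAs also carry pseudouridines. A run of 3 uridines near the 3′ end of COX3 is reported in the literature to depend on the mitochondrial synthase TRUB2.

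The value at each position was a signed difference between CMC-treated and untreated RNA. It is called a level here and is read in percentage points, which the values imply but no header states. The depth of reads is unknown, intervals for counting error are not given, and an exact 0 may mean that no reads covered the position. Exact zeros filled 18.0% to 75.3% of COX2 and 20.7% to 89.4% of COX3 in a library. In COX2 their share averaged 36.4% in control, 52.4% in NME6 knockout, 55.0% in RPUSD4 knockdown and 20.9% in rescue. In COX3 the shares were 43.3%, 64.5%, 64.0% and 23.9% in the same order. So both genes had the fewest zeros in the rescue libraries, and so did all positions together. Over all positions the shares averaged 39.8%, 53.5%, 52.8% and 29.9% in the same order. The part of the zeros in the differences below was not tested. Control replicate 1 and NME6 knockout replicate 1 stood apart, with 61.1% and 75.3% zeros in COX2 and 72.7% and 89.4% in COX3. Where leaving out both changed a call or moved a printed difference between groups by over 1.5 times, both values are given.

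Levels in both mRNAs were low at most bases. The 10 highest bases of a library held, on average, a minor part of the summed level. For COX2 this was 13.7% in control, 15.3% in NME6 knockout, 18.9% in RPUSD4 knockdown and 10.99% in rescue. For COX3 it was 16.4%, 25.4%, 23.3% and 12.4% in the same order. The COX3 averages of control and NME6 knockout were raised by replicate 1, with 23.1% and 49.7%. Without it the control libraries had 12.9% to 15.3% and the knockout libraries 14.1% to 21.9%. Of 1468 positions, 42 were exactly 0 in all 14 libraries and 22 had a mean below 0. A mean of 0.5 points or more over the 14 libraries was reached by 50 positions (16 in COX2, 34 in COX3), which is 3.41% of both genes against 5.18% of all positions. A mean of 1 point or more, the minimum for the test, was reached by 7 positions (2 in COX2, 5 in COX3), and the rest were not tested at that minimum. Just inside that limit stood COX3 base 289 (1.04), COX3 base 211 (1.07) and COX2 base 125 (1.09). Just outside stood COX3 base 500 (0.970), COX3 base 627 (0.944) and COX3 base 273 (0.898).

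**Figure D1:**
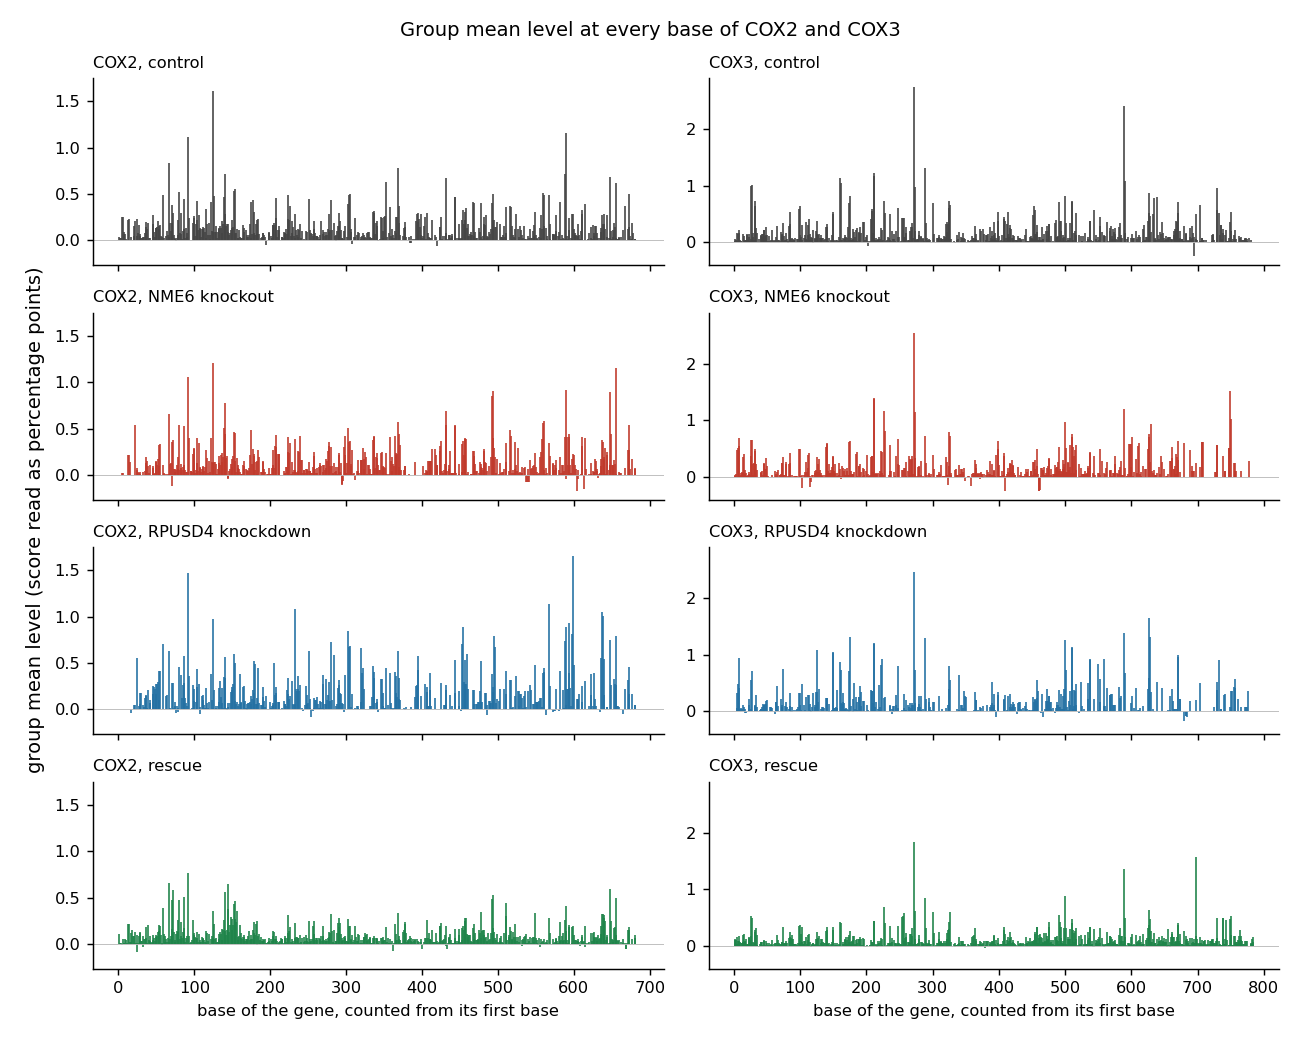
Group mean level (score read as percentage points) at every base of COX2 (left) and COX3 (right) in control, NME6 knockout, RPUSD4 knockdown and rescue libraries; each vertical line is 1 base. COX3 base 272 is the highest line of COX3 in all 4 groups, and COX3 base 697 stands out in the rescue panel with 1.57 points.

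High positions lay next to each other more often in COX3 than in COX2. In COX3, 25 of the 34 positions with a mean of 0.5 or more lay next to another such position, whereas in COX2 it was 4 of 16. Over all positions it was 520 of 858. Such positions were also sparser in COX2 (2.34% of its bases) than in COX3 (4.34%). The closest pair was COX3 bases 211 and 212, in codon 71, whose levels differed by a median of 0.0103 points within a library (Pearson r = 0.998 over 14 libraries, which share their reads). The means of the codon positions of each gene were compared without a test. In COX2 they were 0.109, 0.121 and 0.105 points in the order of the codon bases, and in COX3 0.131, 0.128 and 0.109 points. Their SD over the 14 libraries was 0.0265 to 0.0354 points, a spread between libraries and not between codon positions. Codon position 2 had the highest mean of COX2, and codon position 3 the lowest of COX3, in all 4 groups. Group profiles along COX2 correlated at Pearson r = 0.591 to 0.790 over 684 positions, and along COX3 at 0.642 to 0.809 over 784 positions. These are descriptions across positions of libraries with different shares of zeros.

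COX3 base 272 (position 9478, second base of codon 91) carried the highest level of both mRNAs and ranked first in COX3 in every group. Control libraries 1 to 4 had 2.62, 2.58, 2.68 and 3.14 points. NME6 knockout libraries 1 to 4 had 2.09, 2.55, 2.47 and 3.13 points. RPUSD4 knockdown libraries 1 to 3 had 2.64, 2.77 and 2.02 points. These 3 groups overlapped, at means of 2.75 ± 0.260 (SD, n = 4), 2.56 ± 0.430 (n = 4) and 2.47 ± 0.399 points (n = 3). The rescue libraries had 2.16, 1.73 and 1.63 points, a mean of 1.84 ± 0.282 (n = 3), and each was below all 4 control libraries. The difference of -0.913 points from control did not pass the test over 149 positions (SE 0.535, 95% interval -2.09 to 0.261; limma adjusted p = 0.630). An exact permutation of the libraries, two-sided, gave p = 0.0286, the lowest possible with 4 against 3, and 0.327 after Benjamini-Hochberg adjustment. Beside it, COX3 base 273 averaged 0.898 points.

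COX2 base 125 (position 7710, second base of codon 42) was the only position of either mRNA past the threshold with all libraries. Its mean was 1.09 points over the 14 libraries and 0.879 without the control libraries. It thus reached the minimum of 1 only through the control group, where it was highest. Its difference between rescue and control is therefore a description of what the fit returned. The control libraries had 0.856, 2.11, 1.71 and 1.76 points, and the NME6 knockout libraries 1.05, 1.17, 1.35 and 1.25. The RPUSD4 knockdown libraries had 1.07, 0.956 and 0.889 points, and the rescue libraries 0.357, 0.315 and 0.38. Every rescue library lay below every other library at this base, while control replicate 1 lay below every knockout and knockdown library. The group means were 1.61 ± 0.532 in control, 1.21 ± 0.126 in NME6 knockout, 0.972 ± 0.0917 in RPUSD4 knockdown and 0.350 ± 0.0329 points in rescue. Thus COX2 base 125, the highest base of COX2 in control, ranked 20 among COX2 bases in rescue.

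At COX2 base 125 rescue minus control was -1.26 points (95% interval -1.80 to -0.715, SE 0.248; limma adjusted p = 0.0120), which is 21.8% of the control level. It was 1 of 7 tested members and the only position called lower among the 4 calls over 149 positions (2.68%). The exact permutation p was 0.0571 (0.426 after Benjamini-Hochberg adjustment). The call was lost without rescue replicate 1, 2 or 3 (limma adjusted p = 0.0737, 0.0538 and 0.0650) and with replicate number as a block (paired by number, -1.23 points, limma adjusted p = 0.0566), with the difference between -1.51 and -1.09 points over all 14 omissions. Without replicate 1 of control and NME6 knockout it was -1.51 points (limma adjusted p = 0.000163).

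Against NME6 knockout, rescue differed at COX2 base 125 by -0.856 points (SE 0.248, 95% interval -1.40 to -0.313; limma adjusted p = 0.0797). None of the 7 members passed in this comparison, in which 3.36% of positions did, and 1 had an unadjusted p under 0.05. Base 125 passed without control replicate 1 (limma adjusted p = 0.00395), without control replicate 2 (0.0495), or without both first replicates (-0.907 points, limma adjusted p = 0.00240). RPUSD4 knockdown differed from control there by -0.637 points (SE 0.248, 95% interval -1.18 to -0.0938; limma adjusted p = 0.407). None of the 7 members passed against control in the knockdown, in which 0.671% of positions did. Without control replicate 1 the knockdown difference at base 125 was -0.888 points (limma adjusted p = 0.0302), and without both first replicates it was also -0.888 points (limma adjusted p = 0.00710). The NME6 knockout difference from control was -0.402 points (SE 0.229, 95% interval -0.905 to 0.101; limma adjusted p = 0.768). No position at all passed for NME6 knockout against control (0.0%; 7 of 149 had an unadjusted p under 0.05, none of them a member). At COX2 base 125 the knockout and the knockdown differed by 0.235 points (95% interval -0.308 to 0.778; limma adjusted p = 0.643). No member passed in that comparison, in which 3.36% of positions did.

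The calls without both first replicates covered more of the positions: 4.7% for RPUSD4 knockdown against control, 14.8% for rescue against NME6 knockout and 8.05% for rescue against control. The members called in those fits were COX2 base 125 in all 3 comparisons and COX3 bases 211 and 212 in rescue against control.

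**Figure D2:**
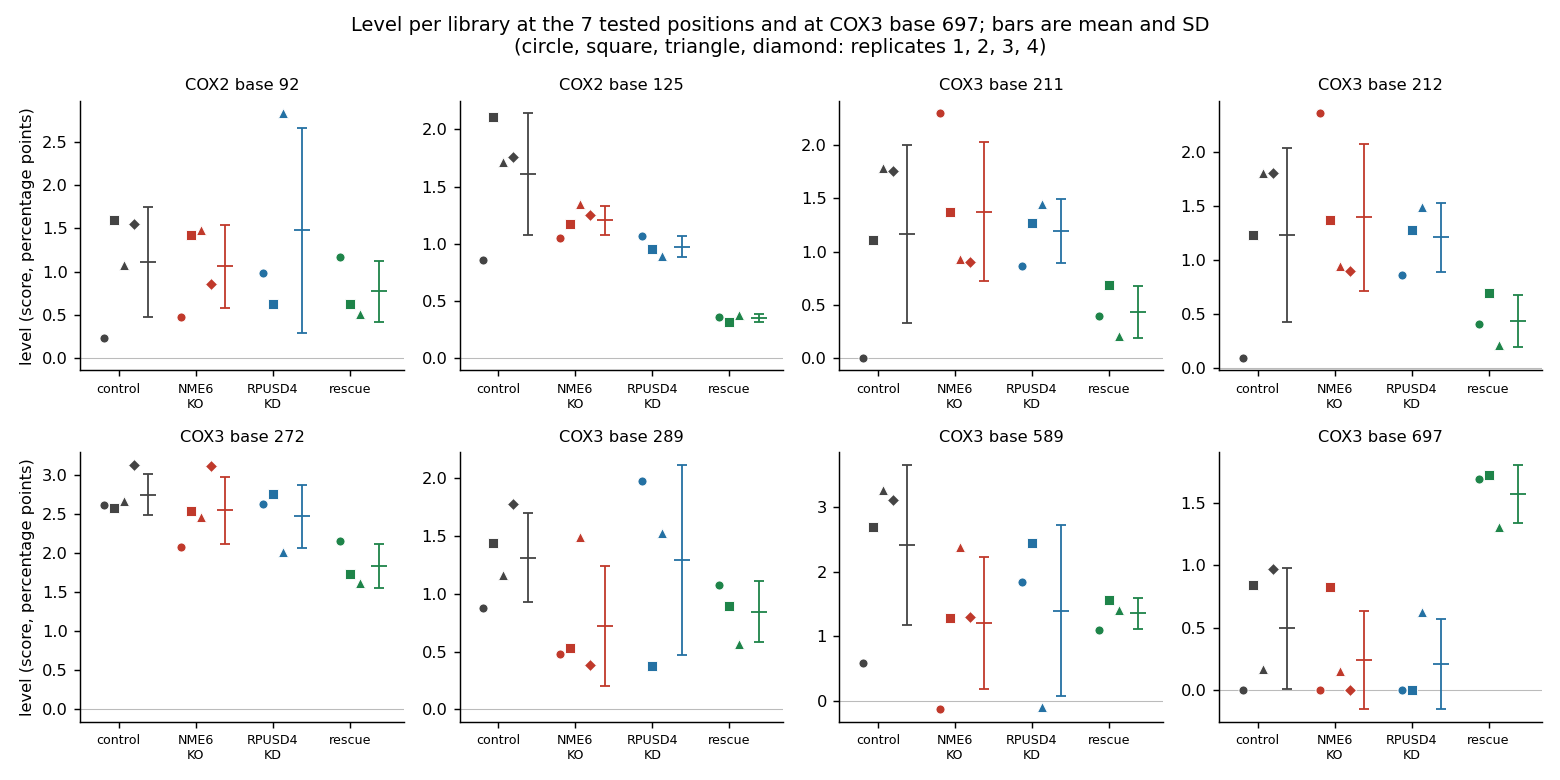
Level (score, percentage points) in each of the 14 libraries at the 7 tested positions and at COX3 base 697; bars are group mean and SD. The 3 rescue libraries lie below all others at COX2 base 125 (0.315 to 0.38 points) and above all others at COX3 base 697 (1.30 to 1.72 points).

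COX2 base 92 (position 7677, second base of codon 31) was the other tested position of COX2. Its levels were 0.227, 1.59, 1.08 and 1.55 points in control, 0.481, 1.43, 1.48 and 0.858 in NME6 knockout, 0.979, 0.623 and 2.83 in RPUSD4 knockdown and 1.17, 0.621 and 0.515 in rescue. The groups overlapped throughout, and RPUSD4 knockdown replicate 3 held the highest value. Rescue minus control was -0.342 points (95% interval -1.48 to 0.797; limma adjusted p = 0.968), and -0.637 points without both first replicates (limma adjusted p = 0.560).

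COX3 bases 211 and 212 (positions 9417 and 9418) moved as 1 peak, so base 212 is given. Without the NME6 knockout libraries the means of these bases were 0.954 and 0.985 points. They thus reached the minimum of 1 only through the knockout group, so rescue minus NME6 knockout is given there as a description. Control had 0.0923, 1.23, 1.80 and 1.80 points, and NME6 knockout 2.35, 1.37, 0.943 and 0.899. RPUSD4 knockdown had 0.857, 1.27 and 1.49 points, and rescue 0.409, 0.691 and 0.212. The rescue libraries lay below all knockout and knockdown libraries, and below control except for replicate 1. Rescue minus NME6 knockout was -0.954 points at base 212 (SE 0.450, 95% interval -1.94 to 0.0324; limma adjusted p = 0.338; exact permutation p = 0.0857, 0.376 after Benjamini-Hochberg adjustment). Without both first replicates it was -0.634 points (95% interval -1.17 to -0.0930; limma adjusted p = 0.110). Rescue minus control was -0.793 points (limma adjusted p = 0.630), and without both first replicates -1.17 points (95% interval -1.71 to -0.632; limma adjusted p = 0.0136).

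COX3 base 589 (position 9795, first base of codon 197) was the second-highest COX3 position over all libraries and had the largest SD over them among the 7 tested positions (1.07 points). Control had 0.589, 2.70, 3.27 and 3.10 points, NME6 knockout -0.133, 1.28, 2.38 and 1.30, RPUSD4 knockdown 1.84, 2.44 and -0.0936, and rescue 1.10, 1.56 and 1.40. Apart from replicate 1, the control libraries exceeded every library of the other groups. With all libraries the differences from control were -1.21 points for NME6 knockout, -1.02 for RPUSD4 knockdown and -1.06 for rescue (limma adjusted p = 0.768, 0.710 and 0.785). Without both first replicates they were -1.37, -1.63 and -1.67 points (limma adjusted p = 0.472, 0.285 and 0.127), so none passed either way. The 3 comparisons share the control libraries.

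COX3 base 289 (position 9495, first base of codon 97) ranged from 0.377 to 1.97 points. Its group means were 1.31 ± 0.384 in control, 0.720 ± 0.517 in NME6 knockout, 1.29 ± 0.822 in RPUSD4 knockdown and 0.843 ± 0.261 points in rescue. All groups overlapped. The largest of its differences was NME6 knockout minus control, at -0.592 points (95% interval -1.38 to 0.195; limma adjusted p = 0.768).

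**Figure D3:**
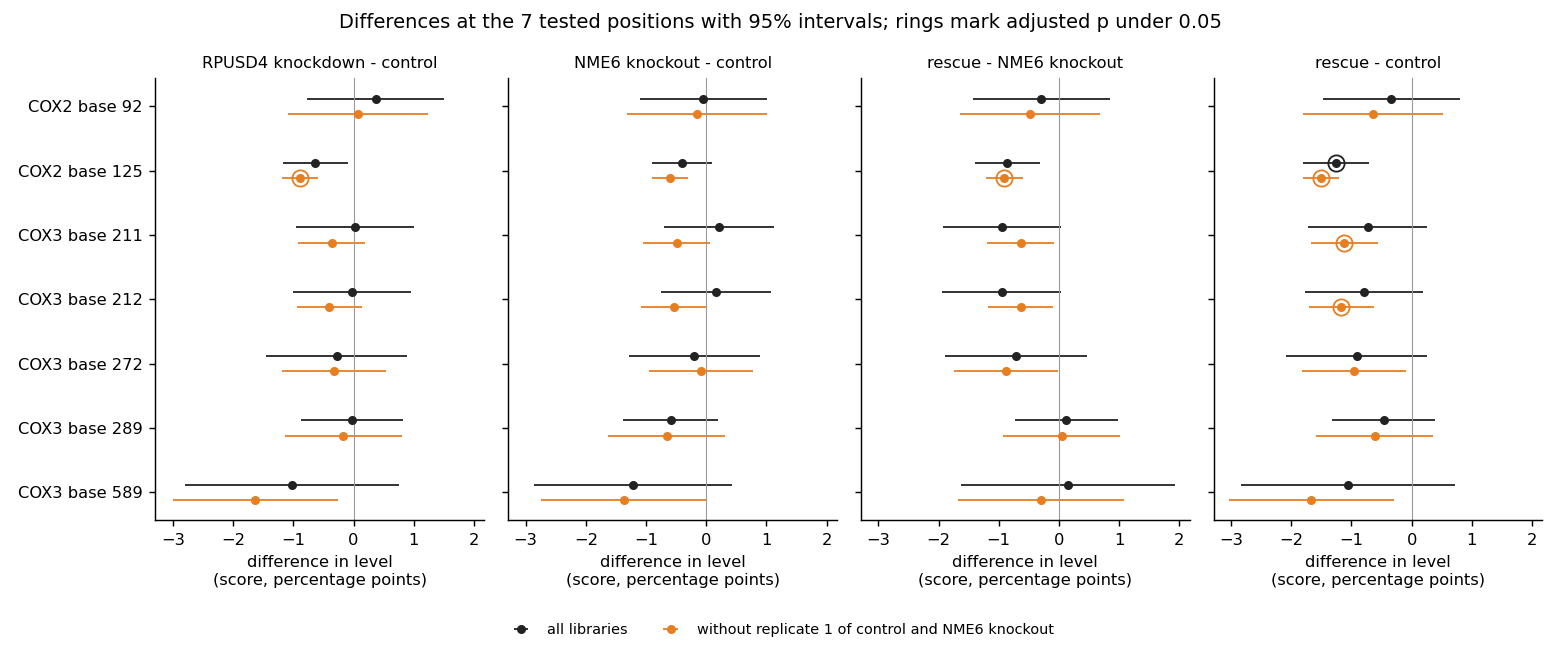
Differences in level (score, percentage points) at the 7 tested positions with 95% intervals from limma, with all libraries (black) and without replicate 1 of control and NME6 knockout (orange); rings mark an adjusted p under 0.05. With all libraries the single ring is COX2 base 125 in rescue minus control, at -1.26 points.

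The run of COX3 reported to be modified by TRUB2 spans bases 697 to 699 (positions 9903 to 9905, codon 233). At base 697 the rescue libraries had 1.69, 1.72 and 1.30 points. Control libraries had 0, 0.846, 0.171 and 0.968 points, NME6 knockout 0, 0.823, 0.155 and 0, and RPUSD4 knockdown 0, 0 and 0.625. All 3 rescue libraries exceeded the other 11, and base 697 ranked second in COX3 in rescue (1.57 ± 0.233 points) against 53 in control (0.496 ± 0.482). Bases 698 and 699 stayed low, at 0.165 and 0.12 points in rescue, 0.0640 and 0.0429 in control, and 0 in every knockout and knockdown library.

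Base 697 had a mean of 0.593 points and was not tested at the minimum of 1. It reached the lower minimum of 0.5 only through the rescue libraries, so its difference is given as a description of what that fit returned. Over the 858 positions with a mean of 0.5 or more, rescue minus NME6 knockout was 1.33 points (SE 0.289, 95% interval 0.698 to 1.96; limma adjusted p = 0.0529). Rescue minus control was 1.08 points (95% interval 0.446 to 1.71; limma adjusted p = 0.131). The exact permutation p was 0.0571 for both (0.361 and 0.338 after Benjamini-Hochberg adjustment). RPUSD4 knockdown minus control was -0.288 points and NME6 knockout minus control -0.252 (limma adjusted p = 0.844 and 0.906). None of these passed. Base 697, without both first replicates, averaged 0.661 points in control and 0.326 in NME6 knockout.

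Zeros moved with the level at base 697. Among the 20 positions within 10 bases of the run, 15% of rescue values were exactly 0, against 61.3% in control, 87.5% in NME6 knockout and 95% in RPUSD4 knockdown. The highest single neighbouring value was 0.257 points in rescue, 1.43 in control, 2.47 in NME6 knockout and 0.880 in RPUSD4 knockdown. From base 589 to the end of COX3 zeros averaged 26.2% in rescue, 59.8% in control, 82.9% in NME6 knockout and 83.8% in RPUSD4 knockdown. The part of coverage in the group difference at base 697 was not tested.

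**Figure D4:**
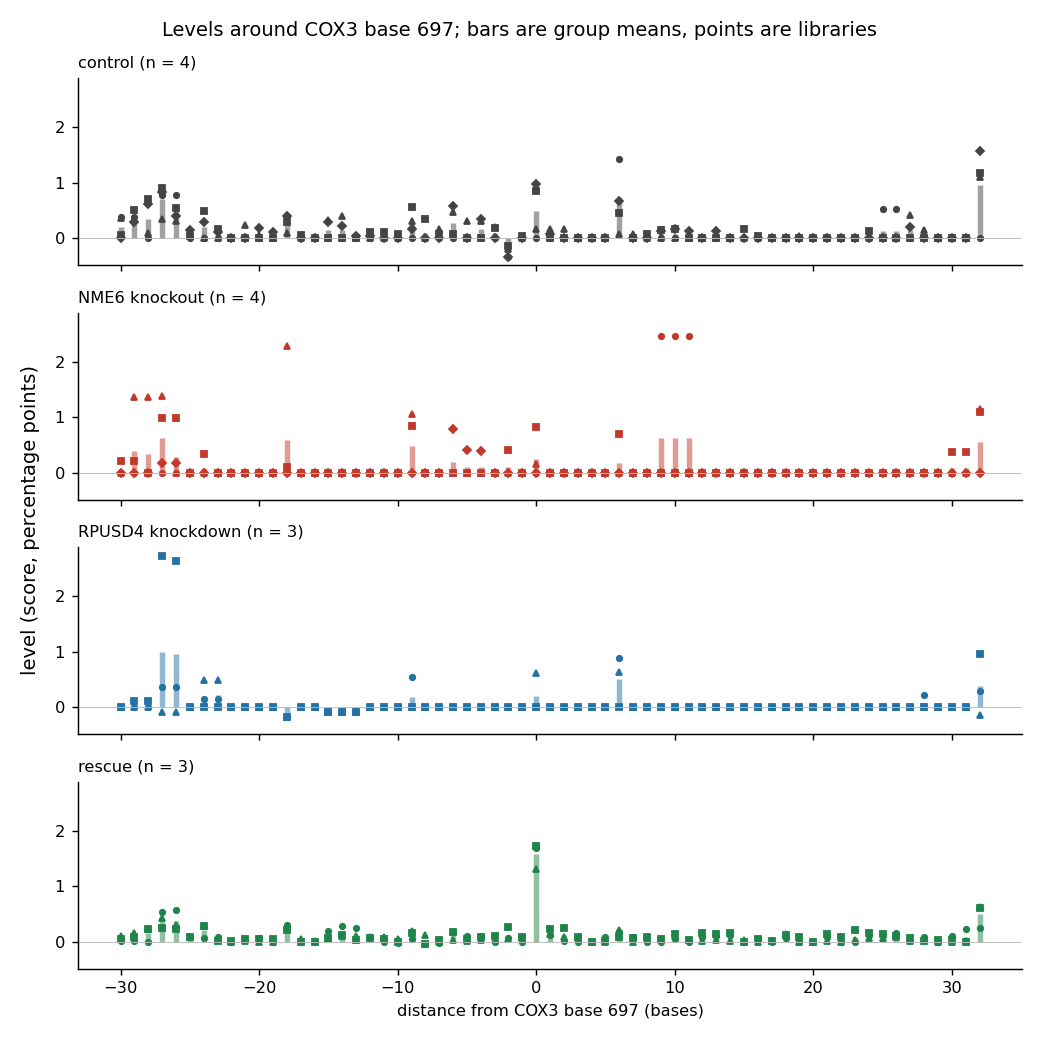
Level (score, percentage points) within 30 bases on either side of the COX3 run, by distance from base 697; bars are group means and points are libraries. At distance 0 the bar is 1.57 points in rescue, 0.496 in control, 0.244 in NME6 knockout and 0.208 in RPUSD4 knockdown.

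Other bases led the mRNAs in single groups. COX2 base 599 had the highest group mean of COX2 in RPUSD4 knockdown (1.66 ± 1.79 points), from 3.7 in replicate 3 against 0.397 and 0.867 in the others. COX3 base 627 ranked second in RPUSD4 knockdown at 1.65 points, with 4.69 in replicate 3 and 0 in replicate 1. COX3 base 749 ranked second in NME6 knockout at 1.52 points, with 3.95 in replicate 4 and 0 in replicates 1 and 3. These ranks rest on 1 or 2 libraries each. By contrast, COX3 base 161 had values of both signs in the knockout (-0.693, 0.326, 0.334 and -0.154 points), and rescue had 0.408, 0.341 and 0.453. RPUSD4 knockdown stood higher there, at 0.791, 0.751 and 0.675 points, and control at 0.181, 1.19, 1.79 and 1.05.

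Over the 50 positions with a mean of 0.5 or more, rescue was lower than control at 43 and higher at 7, with a median difference of -0.241 points. Over all 858 such positions it was lower at 653 and higher at 192, with a median of -0.199. Against NME6 knockout, rescue was lower at 41 members and higher at 9 (median -0.183), and over all 858 lower at 665 and higher at 178 (median -0.253). All 16 COX2 positions were lower in rescue than in NME6 knockout, and 25 of 34 in COX3. RPUSD4 knockdown was lower than control at 26 members and higher at 24, and NME6 knockout was lower at 29 and higher at 21 (medians -0.0220 and -0.0719). Without both first replicates the members' medians were -0.322 for rescue against control (all 858: -0.301), -0.378 for rescue against NME6 knockout (-0.369), -0.226 for RPUSD4 knockdown against control (-0.0419) and -0.0748 for NME6 knockout against control (0.0243). So the lean towards lower levels in rescue was of about the size found over all positions.

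Few of the 50 members separated the groups fully when all libraries were used. Rescue lay below control without overlap at 4 (COX2 bases 125, 588 and 589, COX3 base 272), where 14.3% of all 858 positions did, and above it at 1, COX3 base 697 (3.15% of all). Rescue lay below NME6 knockout at 3 (COX2 base 125, COX3 bases 211 and 212; 14.1% of all) and above it at 2 (COX3 bases 161 and 697; 4.2% of all). NME6 knockout lay below RPUSD4 knockdown at 5 members (COX2 base 599, COX3 bases 149, 150, 160 and 161; 4.08% of all) and above it at 1 (COX2 base 493; 2.91% of all). No member separated RPUSD4 knockdown from control (4.08% of all higher, 3.15% lower) or NME6 knockout from control (1.28% higher, 2.56% lower) with all libraries.

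Some of these members reached the minimum of 0.5 only through the group in which they were high, so their place in the counts followed from that choice. Without the higher group the mean was 0.326 points at COX3 base 697, 0.461 at COX2 base 588, 0.431 at COX2 base 493 and 0.240 at COX2 base 599. It was 0.401, 0.400 and 0.475 points at COX3 bases 149, 150 and 161 without the RPUSD4 knockdown libraries. Leaving such members out, rescue lay below control at 3 and above it at 0, and below NME6 knockout at 3 and above it at 1. NME6 knockout then lay below RPUSD4 knockdown at 1 (COX3 base 160) and above it at 0. The same exclusion was not applied to all positions, so these reduced counts have no share over all positions beside them.

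More members separated without both first replicates. Rescue lay below control at 23 (42.0% of all) and above it at 1 (3.38%), and below NME6 knockout at 10 (36.6%) and above it at 2 (5.13%). RPUSD4 knockdown lay below control at 7 members (11.5% of all) and above it at 0 (4.55%), the 7 being COX2 base 125 and COX3 bases 26, 27, 161, 589, 590 and 729. NME6 knockout lay below control at 7 (9.21% of all) and above it at 3 (9.32%), among them COX2 base 125 and COX3 base 589, both lower. NME6 knockout lay below RPUSD4 knockdown at 5 (4.55% of all) and above it at 4 (9.91%).

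As a whole gene, COX2 had the lowest mean level of the 13 mRNAs in control and in NME6 knockout. It ranked 11 in RPUSD4 knockdown and in rescue. COX3 ranked 10, 11, 13 and 7 in control, NME6 knockout, RPUSD4 knockdown and rescue. The ranks in control and NME6 knockout include their low first replicates. The mean over COX2 was 0.0637, 0.132, 0.131 and 0.139 points in control and 0.0689, 0.128, 0.133 and 0.131 in NME6 knockout. It was 0.125, 0.138 and 0.118 points in RPUSD4 knockdown and 0.0906, 0.0906 and 0.0718 in rescue. The rescue libraries lay below all others except the first replicates of control and knockout. The mean over COX3 was 0.0745, 0.156, 0.151 and 0.163 points in control and 0.0625, 0.149, 0.147 and 0.148 in NME6 knockout. It was 0.127, 0.125 and 0.104 points in RPUSD4 knockdown and 0.106, 0.116 and 0.0879 in rescue. For COX3 the knockdown and rescue ranges overlapped, unlike in COX2.

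No gene mean passed in any of the 5 comparisons (limma over 37 genes, 0.0% called in each; 1, 1, 5, 4 and 3 of 37 genes had an unadjusted p under 0.05 for RPUSD4 knockdown against control, NME6 knockout against control, rescue against NME6 knockout, rescue against control and NME6 knockout against RPUSD4 knockdown). For COX2, rescue differed from control by -0.0319 points (95% interval -0.0840 to 0.0203; limma adjusted p = 0.602) and from NME6 knockout by -0.0312 (-0.0834 to 0.0209; limma adjusted p = 0.510). For COX3, rescue differed from control by -0.0329 points (95% interval -0.0924 to 0.0266; limma adjusted p = 0.671) and from NME6 knockout by -0.0232 (-0.0827 to 0.0363; limma adjusted p = 0.643), a sign that turned with scaled libraries (0.00736). RPUSD4 knockdown differed from control by 0.0110 points for COX2 and -0.0177 for COX3 (limma adjusted p = 0.978 and 0.974), the COX2 sign turning without control replicate 1 (-0.00656). NME6 knockout differed from control by -0.000652 points for COX2 and -0.00968 for COX3 (limma adjusted p = 0.991 for both), the COX2 value being -0.00262 without both first replicates. The smallest exact permutation p over these 8 values was 0.143, for COX2 in both rescue comparisons (0.481 against control and 0.529 against NME6 knockout after Benjamini-Hochberg adjustment over 37 genes).

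Leaving out both first replicates changed these calls. Without them, COX2 in rescue was at 63.1% of control (-0.0494 points, 95% interval -0.0705 to -0.0284; limma adjusted p = 0.00339) and at 64.3% of NME6 knockout (-0.0468 points; limma adjusted p = 0.00397). COX3 in rescue was at 65.9% of control (-0.0535 points, 95% interval -0.0775 to -0.0294; limma adjusted p = 0.00339) and at 69.9% of NME6 knockout (-0.0446 points; limma adjusted p = 0.00889). In that fit 37.8% of genes were called for rescue against control and 32.4% for rescue against NME6 knockout, so both mRNAs were called together with many other genes. COX3 in RPUSD4 knockdown was at 75.6% of control without both first replicates (-0.0383 points, 95% interval -0.0624 to -0.0143; limma adjusted p = 0.101), while COX2 was at 95.1% (-0.00656 points; limma adjusted p = 0.772).

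**Figure D5:**
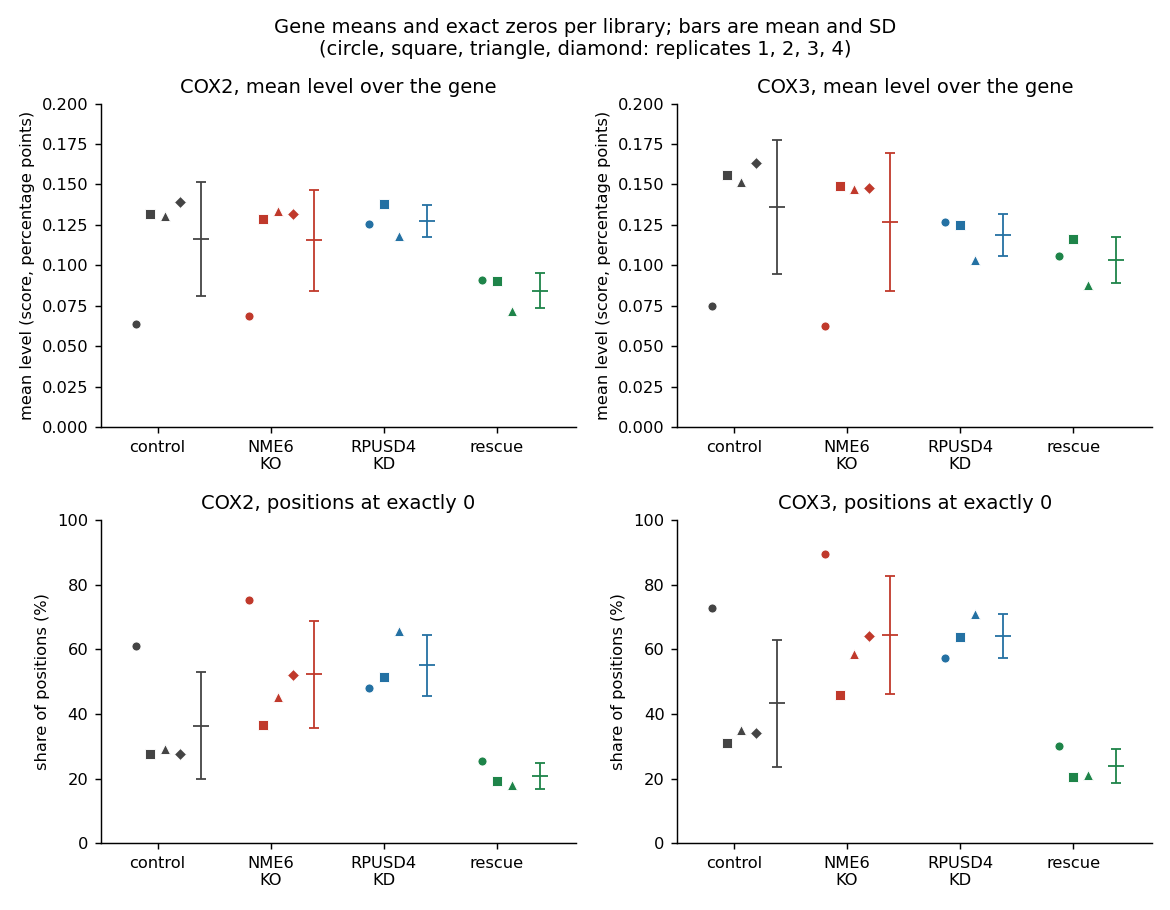
Mean level over COX2 and COX3 (top; score, percentage points) and share of their positions at exactly 0 (bottom; %) in each library; bars are group mean and SD. Replicate 1 of control and of NME6 knockout has the lowest mean of its group (0.0637 and 0.0689 points in COX2) and the most zeros.

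The other 11 mitochondrial mRNAs, which encode subunits of complexes I, III and V and COX1, were also lower in rescue. All 11 gene means were lower in rescue than in control (median -0.0400 points) and than in NME6 knockout (median -0.0394), and none passed the test. This list was not recomputed with scaled libraries. Without both first replicates 9 and 8 of the 11 passed as lower (medians -0.0614 and -0.0578 points). Among the 57 tested positions of these mRNAs, rescue was lower than control at 50 and higher at 7, with 2 called higher, both in COX1. The 7 members were all lower than control, with 1 called. COX1, which encodes the catalytic subunit, differed by -0.0215 points in rescue against control (95% interval -0.0876 to 0.0446; limma adjusted p = 0.784), and by -0.0432 without both first replicates (limma adjusted p = 0.0300). The genes beside the 2 mRNAs behaved less evenly: the tRNA genes TRND, TRNK and TRNG differed by -0.0821, 0.0335 and -0.191 points in rescue against control, and ATP6, which shares position 9207 with COX3, by -0.0439 (limma adjusted p = 0.602, 0.784, 0.440 and 0.602). In the fit without both first replicates ATP6 passed (-0.0614 points, limma adjusted p = 0.00339) and the TRNK difference turned to -0.00192. For likeness of pattern over the 14 libraries, the gene mean of COX2 correlated most with ATP6, ND4L and ND1 (Pearson r = 0.953, 0.952 and 0.930). That of COX3 correlated most with COX1, ND1 and COX2 (0.931, 0.919 and 0.904). These correlations are descriptions over libraries that differ in their share of zeros.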

How the data were processed

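Per the labels' protocols, mitochondria of K562 cells were isolated by fractionation, and their TRIzol RNA was exposed to CMC before stranded library preparation. The authors used Trimmomatic, STAR and SAMtools, per the submitters' processing notes, which name the builds GRCh38 and hg38. The deposited score of each of 14 CMC libraries is a difference per position (2 to 16571), per the file headers, with no unit, count or base. Its formula is not stated there or in the labels. It was read as percentage points, CMC minus untreated. Same-group libraries share identical negative values at 5 to 60 member positions (18 of 18 pairs, within 1e-09), and different groups share none (0 of 73 pairs), so 1 untreated profile appears subtracted per group and its error is missing from the spread. Of 20 samples, the 6 untreated ones were not analysed separately. The nuclear transcripts NME6 and RPUSD4 were not analysed, so loss of either gene was not checked.

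Genes came from RefSeq (GRCh38.p14). Scores as given were fitted with limma 3.58.1 in R 4.3.3 (empirical Bayes with a trend, all 14 libraries) over 149 positions with a mean of 1 or more, and over 37 gene means, two-sided, with Benjamini-Hochberg adjustment over all features and a threshold of 0.05. Exact permutation tests were two-sided (smallest p 0.0286 for 4 against 3 and for 4 against 4), adjusted over the same features. Python 3.11.15, numpy 2.4.6, pandas 2.3.3, scipy 1.17.1 and matplotlib 3.10.9 were used. The fits were first tested on simulated data. Named were called members, the tested members of highest mean (up to 5 a gene), the COX3 run reported for TRUB2, and tested members whose groups do not overlap; others were chosen after their values were seen. Members, lists and tests were chosen with earlier results of these data known.

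Alternatives were other level minimums, only the groups compared, no trend, signed log2 values, scaled or weighted libraries, values below 0 set to 0, the 10 highest positions left out, each library left out, both first replicates left out and a replicate block. Same-number libraries of NME6 knockout and control deviated together over the 149 positions (correlations 0.116 to 0.471 for 4 pairs, 3 best with their own number), a pairing taken from the data. The other comparisons had -0.425 to 0.0380. The main fits paired no comparison. The replicate block used the number of all 14 libraries, so it blocked these other comparisons too.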

Additional observations from a re-analysis of the deposited data

Results flagged for a closer look

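In groups of 4 libraries, 6 values stood far from the other 3 of their group, out of 24 groups of values checked, where chance alone flags about 1 in 20 groups. Control replicate 1 had the lowest COX2 mean level (0.0637 points, next 0.131) and the lowest COX3 mean level (0.0745 points, next 0.151). NME6 knockout replicate 1 likewise had the lowest COX2 mean (0.0689 points, next 0.128) and COX3 mean (0.0625 points, next 0.147). These libraries were the lowest of their group at 33 and 32 of the 50 members with a mean of 0.5 or more, and at 575 and 490 of all 858 such positions. At COX3 base 289, NME6 knockout replicate 3 was high (1.49 points, next 0.529). At COX3 base 699, control replicate 3 had 0.172 points and the other 3 control libraries 0.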

How the results depend on the processing

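Over 33 results and 495 recomputed values, 427 kept direction and side of the threshold (counts within 1.5 times the main one). At COX2 base 125, rescue minus control stayed negative in all 23 alternatives and lost its call at a minimum of 0.5 (-1.26 points, limma adjusted p = 0.0703), without a minimum (0.543), with only the 2 groups (0.117), with the replicate block (-1.23, 0.0566) and without any 1 rescue library. The number of members called was 0, 0, 0, 1 and 0 in the main fit, which tested 7 members. The order is RPUSD4 knockdown minus control, NME6 knockout minus control, rescue minus NME6 knockout, rescue minus control and NME6 knockout minus RPUSD4 knockdown. Without a minimum the number rose to 2, 12, 21, 8 and 8 of 1426 members tested, a fit that includes positions at 0 in nearly all libraries. For rescue minus control it was 0 at a minimum of 0.5, with only the 2 groups or with the replicate block, 5 with library weights and 3 without both first replicates. For RPUSD4 knockdown minus control it was 1 with library weights or without both first replicates. For rescue minus NME6 knockout it was 1 with only the 2 groups, signed log2 values, library weights or without both first replicates. With 1 library left out the counts ran from 0 to 1 for these 3 comparisons and were 0 for the other 2. Except without both first replicates, the share of all positions called is not given for these alternatives, so their counts have no background beside them. Members lower without overlap, recounted after seeing the data without both first replicates, went from 4 to 23 (rescue, control), from 3 to 10 (rescue, NME6 knockout) and from 0 to 7 (RPUSD4 knockdown and NME6 knockout, each against control).

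Gene means of rescue passed in 2 settings. With library weights, COX2 was -0.0479 against control and -0.0430 points against NME6 knockout, and COX3 -0.0515 and -0.0391 points. Without both first replicates they were -0.0494, -0.0468, -0.0535 and -0.0446 points. Leaving out 1 library gave -0.0494 to -0.0243 (COX2, control), -0.0468 to -0.0250 (COX2, NME6 knockout), -0.0535 to -0.0238 (COX3, control) and -0.0446 to -0.0155 points (COX3, NME6 knockout). Among the 9 other alternatives some rescue differences nearly vanished. The values nearest 0 were -0.00621 (COX2, control), -0.0076 (COX2, NME6 knockout) and -0.00185 points (COX3, control). Signs turned at small uncalled differences. COX2 in RPUSD4 knockdown minus control became -0.0023 with signed log2 values, -0.00347 with weights and -0.00656 without both first replicates (one-out range -0.00656 to 0.0186). COX2 in NME6 knockout minus control became 0.00139 with scaled libraries and 0.00139 with values below 0 set to 0 (one-out -0.0182 to 0.0149). COX2 in NME6 knockout minus RPUSD4 knockdown became 0.00395 without both first replicates (one-out -0.0176 to 0.00395). COX3 in NME6 knockout minus control ranged from -0.0302 to 0.0117 with 1 library left out. COX3 in rescue minus NME6 knockout became 0.00736 with scaled libraries, and COX3 in NME6 knockout minus RPUSD4 knockdown -7.68e-06 with the replicate block. The replicate block, which groups all 14 libraries by replicate number, changed no other call. Apart from what each setting leaves out, the causes were not tested.

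Depth is unknown, so an exact 0 cannot be told apart from no reads. The spread leaves out the error of the untreated profile, the rescue libraries have the fewest zeros, and the labels give no batch. No base letters were used, so levels at single positions are not tied to uridines.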
